A study of Rattus norvegicus with 9 samples.

Results

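Olfm1, Commd3, Zfp410, Clasrp and H2afz are 5 of the transcripts that the study chose for in situ hybridisation after it had seen its dendrite arrays. They were followed here through every probe set that the platform's gene table assigns to 1 of them alone. This rule gave 7 probe sets for 5 of the 14217 genes measured in this way. Olfm1 and Zfp410 have 2 probe sets each, and the other 3 genes have 1 each. Clasrp is the current symbol of the gene the study calls Sfrs16, and H2afz is now written H2az1. Since the study picked these genes with their array signals in view, the levels below are a description. Tests were run only on differences between pool sizes and on correlations between the 5 genes or between probe sets of the same gene.

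The arrays held RNA amplified from dendrites that had been cut from cultured rat hippocampal neurons. The animals were untreated Sprague-Dawley embryos at embryonic day 19, and the neurons, labelled as pyramidal, spent 14 days in dispersed primary culture. A pool held 100, 200 or 400 dendrites gathered from several cells, and each pool size had 3 arrays with replicate numbers 1 to 3, labelled as biological replicates. The sources used here do not say which pools shared an embryo, a litter or a culture, so p-values measure the spread between these pools only. Dendrites and axons could not be told apart by shape when they were collected, so the pools may contain some axonal RNA.

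Messenger RNAs leave the cell body in particles that bind sequence elements of the transcript and travel along microtubules, and translation near synapses lets a dendrite change its proteins locally. The 5 genes do different work in the cell. Olfm1, also called noelin or pancortin, encodes a secreted glycoprotein with an olfactomedin domain that is abundant in neurons and takes part in axon growth and in receptor complexes at the synapse. Commd3 encodes a COMMD protein, a subunit of the Commander complex, which returns membrane proteins from endosomes to the cell surface. Zfp410 encodes a zinc finger transcription factor known for activating Chd4, the ATPase of the chromatin remodelling complex NuRD. Clasrp encodes an arginine- and serine-rich protein that binds a CLK kinase and influences alternative splicing. H2afz encodes the histone variant H2A.Z, which replaces H2A in nucleosomes near promoters.

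In the study's own images, made on cultured cortical neurons and not on the hippocampal neurons of these arrays, the probes fell into 3 groups by the ratio of dendritic to somatic signal. The Sfrs16 probe was brighter in dendrites of mouse neurons. The Commd3 and Zfp410 probes were placed with those brighter in rat dendrites, although the difference for Zfp410 missed the study's significance level. The Olfm1 and H2afz probes were bright in dendrites of both species. Those images compare dendrite with soma within a neuron, whereas the arrays give the signal of severed dendrites with no soma sample beside them. The 2 kinds of value therefore stand side by side below without being put on 1 scale.

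Signal on an array depends on how well each probe binds as well as on the amount of RNA. A gene's place among all genes on the same array, given here as a percentile, therefore ranks signals and not amounts. Over the 9 arrays the medians of the log2 signal lay between 7.46 and 7.53, and the correlation of all probe sets between 2 arrays ran from 0.678 to 0.877. The array of 400 dendrites, replicate 1, was the least like the others, with a median correlation of 0.757, followed by 100 dendrites, replicate 1, with 0.788. The other 7 arrays had median correlations of 0.818 to 0.849. Of the markers of pyramidal neurons, 7 of 8 were measured and their median percentile was 88.5, with 3 in the top 5% of genes, led by the transcription factor Neurod2 at 99.9. The kinase Camk2a, whose mRNA is a classical dendritic transcript, stood at 28.8. Astrocyte markers had a median percentile of 84.1, with 0 of 7 in the top 5%, and S100b was the highest at 90.1 and the water channel Aqp4 the lowest at 10.03. The median percentile was 21.3 for interneuron markers, 27.7 for microglial markers and 57.6 for oligodendrocyte lineage markers, with 0 in the top 5% in each list. The nuclear and cell body RNAs Meg3, Miat and Snhg11 had a median percentile of 92.7, with Meg3 at 97.0. What RNA of other cells or of cell bodies contributed to the 5 genes was not tested.

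Ranked by median percentile over the 9 arrays, 3 of the 5 genes were in the top 5% of genes, a class of 711 genes that reached down to a percentile of 94.6. Olfm1 stood at 97.5, Commd3 at 97.3 and Zfp410 at 94.9, close to the edge of the class. H2afz stood outside it at 91.7, in place 1058, and was in the top 5% on 1 of 9 arrays. Clasrp lay near the middle of all genes at 57.2. Commd3 and Zfp410, which the images grouped as rat-biased, and Olfm1, bright in both species, ranked above the limit of the top 5% in rat dendrites. H2afz, also bright in both, and Clasrp, grouped as mouse-biased, ranked below it. These are ranks in rat alone, with no mouse array beside them, of genes the study chose with dendrite array levels in view. They do not test the image groups. The place of Zfp410 also averages probe sets with median percentiles of 45.3 and 99.8, and its image difference was not significant.

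**Figure D1:**
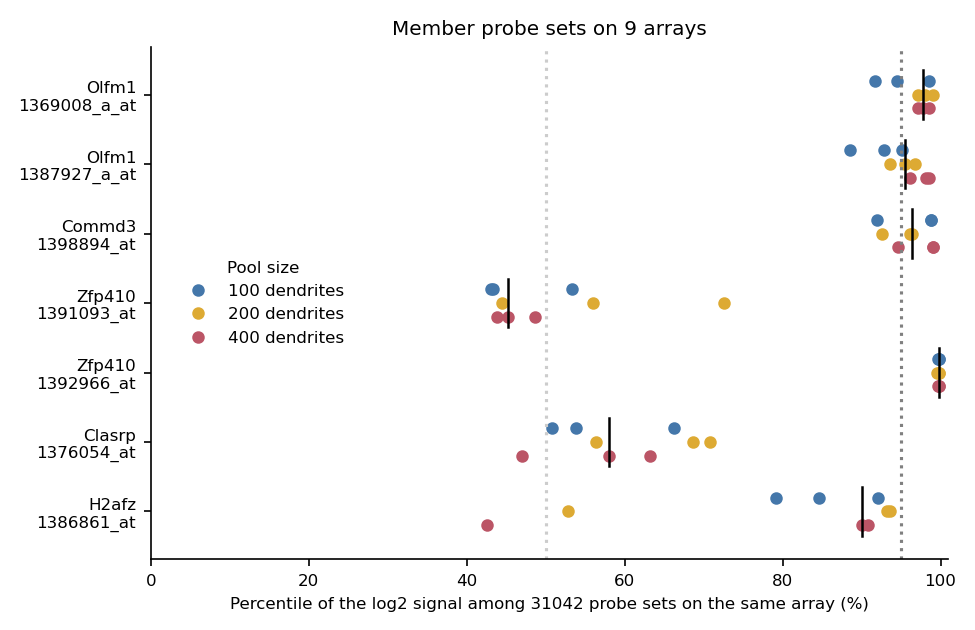
Percentile of the log2 signal of each of the 7 probe sets among 31042 probe sets on the same array, with 1 point per array coloured by pool size, a vertical bar for the median over 9 arrays, and dotted lines at the 50th and 95th percentiles. The 2 Zfp410 probe sets stand at medians of 45.3 and 99.8, while both Olfm1 probe sets lie near the top.

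Olfm1 had high signals on every array. In the pools of 100 dendrites its gene value, the median of its 2 probe sets, was 10.64, 11.06 and 9.77 log2 units for replicates 1 to 3. It was 11.12, 11.00 and 11.76 in the pools of 200 dendrites and 11.67, 11.50 and 11.55 in those of 400. All 3 arrays of 400 dendrites were above all 3 arrays of 100 dendrites, and the arrays of 200 dendrites overlapped both. The percentile of Olfm1 ran from 91.9 to 98.7, and 8 of 9 arrays had it in the top 5%. The pool means were 10.49 ± 0.66 for 100 dendrites, 11.29 ± 0.41 for 200 and 11.57 ± 0.09 for 400 (SD, n = 3 each). With 400 dendrites the SDs of the 2 probe sets alone were 0.27 and 0.40. The small SD of the gene value is therefore not shown to be a trait of the transcript.

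In a pool, fewer dendrites with a transcript and less of it per dendrite cannot be told apart. The Olfm1 signal was 1.08 log2 units higher with 400 than with 100 dendrites (95% interval 0.19 to 1.98). The limma test gave an unadjusted p of 0.0215, and after Benjamini-Hochberg adjustment over all genes the adjusted p was 0.9991. The slope was 0.54 log2 units per doubling of the number of dendrites (95% interval 0.11 to 0.97), with an unadjusted limma p of 0.0176, and the moderated F over the 3 pool sizes had an unadjusted p of 0.0539. The difference between 200 and 100 dendrites was 0.80 (95% interval -0.09 to 1.69, unadjusted limma p of 0.0739). Between 400 and 200 dendrites it was 0.28 (95% interval -0.61 to 1.17). The adjusted test therefore did not separate the pool sizes for Olfm1. The unadjusted call for 400 against 100 dendrites was lost without replicate 3 of 100 dendrites (difference 0.72, unadjusted limma p of 0.112) and when only the brightest probe set stood for each gene (0.80, unadjusted limma p of 0.140). Beside this, the mean log2 signal of the pyramidal markers ran from 9.67 to 9.98 over the arrays of 100 dendrites and from 9.71 to 9.89 over those of 400. That of the astrocyte markers ran from 7.84 to 8.77 and from 7.32 to 8.43 in the same order, and that of the nuclear and cell body RNAs from 9.10 to 9.87 and from 9.44 to 9.93. The part of other cells or of cell bodies in the Olfm1 difference was not tested.

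Both Olfm1 probe sets are of the kind that binds several transcript forms of 1 gene. Probe set 1369008_a_at, designed from a RefSeq mRNA record, gave 10.56, 11.88 and 9.997 log2 units in the pools of 100 dendrites, 11.37, 11.65 and 12.21 in those of 200, and 11.54, 11.91 and 11.37 in those of 400. Probe set 1387927_a_at, designed from a GenBank record, gave 10.72, 10.25 and 9.54 with 100 dendrites, 10.87, 10.35 and 11.30 with 200, and 11.81, 11.08 and 11.73 with 400. The 400 and 100 dendrite arrays were apart in the second probe set and overlapped in the first. Such a separation was found in 1 of the 7 probe sets, beside 6.17% of all probe sets in either direction. The second differed by 1.37 log2 units between 400 and 100 dendrites (95% interval 0.40 to 2.34, unadjusted limma p of 0.00988), with an adjusted p of 0.9998 over 31042 probe sets. The first differed by 0.80 (95% interval -0.30 to 1.89, unadjusted limma p of 0.139). Of the 7 probe sets, 1 had an unadjusted p under 0.05 in this contrast, beside 2.21% of all probe sets. Over the 9 arrays the 2 probe sets had a Pearson correlation of 0.52 (exact permutation p = 0.152, adjusted over 2 pairs 0.304) and a Spearman correlation of 0.32 (exact permutation p = 0.410). Without the 2 arrays farthest from the median of the first probe set the Pearson correlation was -0.22, and within pool sizes it was 0.28.

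Commd3 was as high in rank as Olfm1, and its gene value was less even. The Olfm1 value is taken over 2 probe sets, which alone had ranges over the 9 arrays of 2.22 and 2.27 log2 units, beside 2.21 for Commd3. The 1 probe set of Commd3, designed from an expressed sequence tag, gave 10.05, 12.002 and 11.99 log2 units with 100 dendrites. It gave 11.05, 10.16 and 11.19 with 200, and 10.52, 12.25 and 12.15 with 400. Replicate 1 of the 100 and 400 dendrite pools and replicate 2 of the 200 dendrite pools lay well under the others of their size, and the 3 groups overlapped. The lowest percentile among genes was 93.6 and the highest 99.4, and 7 of 9 arrays had it in the top 5%.

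The pool means of Commd3 were 11.35 ± 1.12, 10.80 ± 0.56 and 11.64 ± 0.98 for 100, 200 and 400 dendrites (SD, n = 3 each). The difference between 400 and 100 dendrites was 0.30 log2 units (95% interval -1.06 to 1.65), that between 200 and 100 was -0.55 (-1.90 to 0.81), and that between 400 and 200 was 0.84 (-0.51 to 2.19). Each interval included 0. The sign of the first rests on single arrays, since it was -0.35 without replicate 1 of 100 dendrites and -0.01 without replicate 2 of 400 dendrites.

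The gene value of Zfp410 was the steadiest of the 5, but it averages 2 probe sets of very different rank. Probe set 1392966_at gave 13.06, 13.42 and 13.22 log2 units with 100 dendrites, 13.45, 13.28 and 12.94 with 200, and 13.54, 13.03 and 13.14 with 400. Probe set 1391093_at gave 7.62, 7.23 and 7.23, then 7.76, 8.47 and 7.26, then 7.47, 7.20 and 7.32 in the same order. The first was in the top 5% of probe sets on all 9 arrays, with percentiles of 99.6 to 99.8, and the second on 0 of 9, with percentiles of 43.0 to 72.6. Both were designed from expressed sequence tags, and which part of the transcript each binds was not analysed here.

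The median percentiles of the 2 Zfp410 probe sets were 54.5 points apart. Among the 3061 genes with exactly 2 probe sets the median gap was 25.1 points, and 480 genes, 15.68%, had a gap at least as large as that of Zfp410. The gap of Olfm1, at 2.32 points, was among the small ones, as 95.1% of those genes had a gap at least as large. The place of Zfp410 at the edge of the top 5% thus depended on how its probe sets were combined. With the probe set of highest mean signal for each gene its percentile was 99.6. The same choice put Commd3, which has 1 probe set, at 94.6 in place of 97.3, and H2afz at 85.9 in place of 91.7. The count of the 5 genes in the top 5% stayed at 3. Of the 711 genes in the top 5%, 87 had several probe sets, and 9 of these, 10.3%, had 1 under the 50th percentile. Over the 9 arrays the 2 Zfp410 probe sets had a Pearson correlation of 0.26 (exact permutation p = 0.546) and a Spearman correlation of 0.42 (exact permutation p = 0.270).

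The gene value of Zfp410 was 10.34, 10.32 and 10.23 log2 units with 100 dendrites, 10.61, 10.88 and 10.10 with 200, and 10.51, 10.12 and 10.23 with 400. The groups overlapped, the whole range over 9 arrays was under 1 log2 unit, and 4 of 9 arrays had the gene in the top 5%, with percentiles of 93.3 to 96.9. Pool means were 10.30 ± 0.06, 10.53 ± 0.39 and 10.28 ± 0.20 (SD, n = 3 each). With 100 dendrites the SDs of 1392966_at and 1391093_at alone were 0.18 and 0.23. The difference between 400 and 100 dendrites was -0.01 log2 units (95% interval -0.77 to 0.74), so a change of up to about that interval's ends could not be told from none.

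Clasrp had the lowest rank of the 5 genes. Its 1 probe set gave 8.15, 7.66 and 7.55 log2 units with 100 dendrites, 7.78, 8.39 and 8.27 with 200, and 7.84, 8.02 and 7.39 with 400. No pool size stood apart from the others. The percentile among genes ran from 43.6 to 71.8, was above 50 on 7 of 9 arrays and in the top 5% on 0. Pool means were 7.79 ± 0.32, 8.14 ± 0.32 and 7.75 ± 0.32 (SD, n = 3 each), and the difference between 400 and 100 dendrites was -0.04 log2 units (95% interval -0.83 to 0.76). Between 200 and 100 dendrites it was 0.36 (-0.44 to 1.15), and between 400 and 200 it was -0.39 (-1.19 to 0.40).

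Which probe set stands for Sfrs16 is not settled by the tables. The study's list of rat and mouse orthologs pairs Sfrs16 with probe set 1376160_at, whereas the platform's gene table assigns that probe set to Relb. Relb, a subunit of the NF-kappa B transcription factor, is the gene next to Clasrp in the RefSeq rat annotation (assembly GRCr8), and 1376160_at is the only probe set that names it. This probe set gave 6.99, 6.79 and 7.60 log2 units with 100 dendrites, 8.57, 7.63 and 7.62 with 200, and 8.15, 7.92 and 7.30 with 400. It therefore lay in the same middle range as the Clasrp probe set. Its median percentile was 52.8 among probe sets (lowest 32.9, highest 75.2), beside 58.0 for 1376054_at, and neither was in the top 5% on any of the 9 arrays.

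H2afz changed most from array to array. Its 1 probe set, designed from a RefSeq mRNA record, gave 8.78, 10.11 and 9.16 log2 units with 100 dendrites, 7.63, 10.29 and 10.46 with 200, and 7.23, 9.92 and 9.78 with 400. Replicate 1 was the lowest array at every pool size, and with 200 and 400 dendrites it lay more than 2 log2 units under the others. On those 2 arrays the gene stood at percentiles of 51.4 and 39.5, against 80.6 to 95.1 on the other 7. The median correlation with the other arrays was 0.818 for replicate 1 of 200 dendrites and 0.757 for replicate 1 of 400 dendrites. On these 2 arrays, in the same order, the mean log2 signal was 8.58 and 7.32 for the astrocyte markers, 8.12 and 8.31 for the oligodendrocyte lineage, and 7.15 and 6.59 for microglia. It was 10.07 and 9.71 for the pyramidal markers, 6.23 and 6.90 for the interneuron markers, and 10.05 and 9.93 for the nuclear and cell body RNAs. Their part in the low H2afz values was not tested. RefSeq lists the pseudogenes H2az1-ps1 and H2az1-ps2, and their share of this signal was not tested.

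For H2afz the pool means were 9.35 ± 0.69, 9.46 ± 1.59 and 8.98 ± 1.52 (SD, n = 3 each). The difference was -0.38 log2 units between 400 and 100 dendrites (95% interval -2.20 to 1.45), 0.11 between 200 and 100 (-1.72 to 1.93), and -0.48 between 400 and 200 (-2.31 to 1.34). These intervals are the widest of the 5 genes. Without replicate 1 of 400 dendrites the first difference was 0.50 and the third 0.39, and without replicate 3 of 200 dendrites the second was -0.39.

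**Figure D2:**
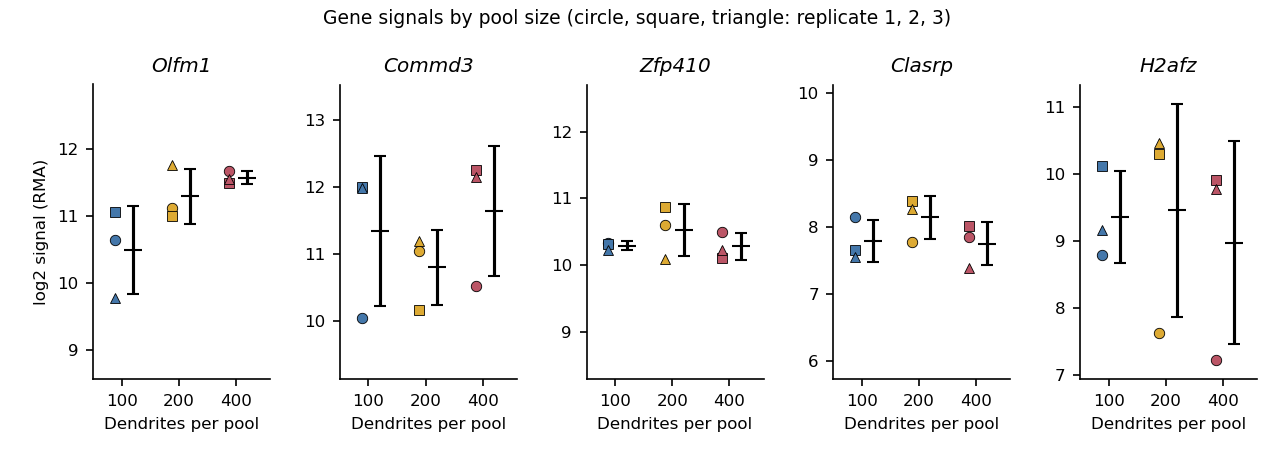
Log2 signal of the 5 genes on each array by pool size, with circles, squares and triangles for replicates 1, 2 and 3 and black bars for the mean and SD (n = 3). The panels span the same number of log2 units at different heights. Olfm1 with 400 dendrites and Zfp410 with 100 have small spreads, but each of these values is taken over 2 probe sets with larger SDs of their own. Replicate 1 of H2afz lies low at each pool size.

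Of the 5 genes, 0 had an adjusted p under 0.05 between 400 and 100 dendrites, as did 0% of the 14217 genes by limma. The same holds for 200 against 100 dendrites and for 400 against 200. At an unadjusted p under 0.05, 1 of 5, Olfm1, was called between 400 and 100 dendrites, beside 2.41% of all genes. For 200 against 100 dendrites the count was 0 of 5, beside 3.03%, and for 400 against 200 it was 0 of 5, beside 2.30%. The slope on the number of dendrites had an unadjusted p under 0.05 in 1 of 5 genes, again Olfm1, beside 2.73% of all genes. The arrays of 400 and 100 dendrites did not overlap in 1 of the 5 genes, beside 6.25% of all genes in either direction. On the same values the methods' t-test also called 0 of 5 genes after adjustment. The median standard error of a difference between pool sizes was 0.452 log2 units over all genes, which sets the size of change these arrays could show.

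**Figure D3:**
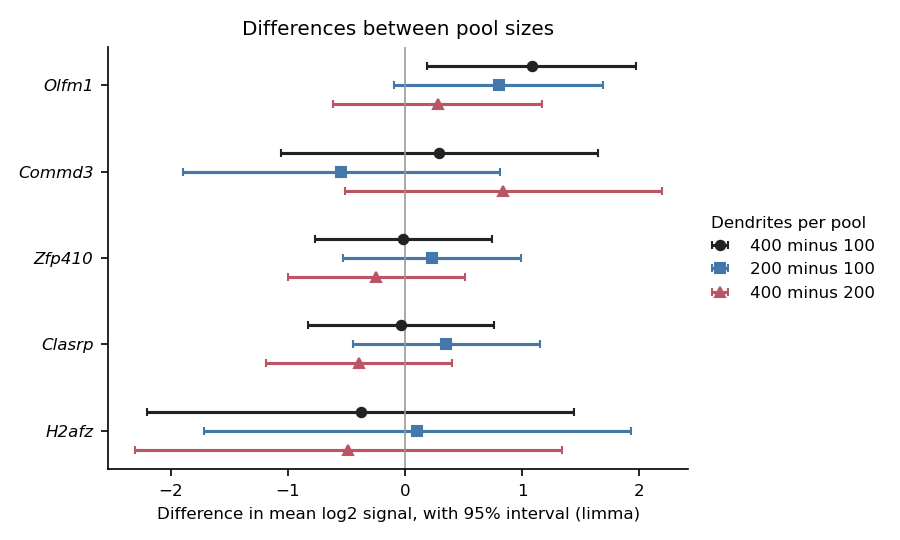
Difference in mean log2 signal between pool sizes for each gene, with 95% intervals from the limma fit of 9 arrays. The interval of Olfm1 for 400 minus 100 dendrites, 0.19 to 1.98, excludes 0 before adjustment, and the other 14 intervals include 0.

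The spread over the 9 arrays also set the genes apart. The SD was 1.17 log2 units for H2afz, 0.88 for Commd3, 0.62 for Olfm1, 0.34 for Clasrp and 0.25 for Zfp410, where the median gene had 0.552. The SD of H2afz was at the 97.2 percentile of all genes and at the 94.8 percentile of the 500 genes of nearest mean signal. That of Commd3 was at 88.2 and 87.6 by the same measures, and that of Olfm1 at 62.4 and 65.2. The Olfm1 value is taken over 2 probe sets, whose own SDs were 0.70 and 0.73. Clasrp, at 11.6 and 7.2, was among the least variable genes of its signal level. Its mean of 7.89 log2 units lay near the array medians of 7.46 to 7.53, and whether its low SD is a trait of the transcript was not tested. The gene value of Zfp410 was at 3.97 and 6.6 by the same measures. For Zfp410 this SD is that of a value taken over 2 probe sets, whose own SDs were 0.21 for 1392966_at and 0.41 for 1391093_at. Their means were 13.23 and 7.51 log2 units in the same order, so neither had the signal level of the 500 genes compared. The low SD of the gene value is therefore not shown to be a trait of the transcript.

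No correlation between the 5 genes passed the test over these 9 arrays. Of their 10 pairwise correlations over 9 arrays, 5 were positive and 5 negative, and 0 passed the exact permutation test. The strongest were between Commd3 and Clasrp, with r = -0.66 (exact permutation p = 0.0582, adjusted over 10 pairs 0.291) and rho = -0.57 (exact permutation p = 0.121), and between Commd3 and Zfp410, with r = -0.66 (exact permutation p = 0.0512, adjusted 0.291) and rho = -0.67 (exact permutation p = 0.0589). Within pool sizes these were -0.58 and -0.59, and without the 2 arrays farthest from the Commd3 median they were -0.79 and -0.76.

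The genes whose signal followed each member most closely over the 9 arrays were found by Pearson's r among the other 14216 genes, as a description. For Olfm1 these were Dnajb4, a cochaperone (r = 0.94), and Coq6, an enzyme of ubiquinone synthesis (0.93). For Commd3 they were the olfactory receptor Or1e31 (0.93) and Ndufa1, a subunit of respiratory complex I (0.91). The closest to Zfp410 were the zinc finger gene Zfp523 (0.97) and the serotonin receptor subunit Htr3b (0.92), and the closest to Clasrp were Stpg1 (0.95) and Cpsf6, a factor of 3′ end processing of mRNA (0.91). H2afz was followed by Tmx1, a thioredoxin-like membrane protein (0.95), and by the unnamed locus LOC102554403 (0.95). The number of genes with r of 0.9 or more was 24 for H2afz, 7 each for Olfm1 and Commd3, 4 for Clasrp and 2 for Zfp410. These values are the highest of many compared over the same 9 arrays and were not tested.

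Each gene was also set beside the genes it works with or is related to. As the study chose the 5 genes with their array signals in view, their ranks among these relatives are a description and were not tested. Of the 16 Commander genes other than Commd3, all measured, 0 were in the top 5%, 9 were above the 50th percentile, and the median percentile was 55.2. The highest was Snx17, a sorting nexin that hands cargo to the complex (9.54 ± 0.78 log2 units, SD, n = 9, percentile 91.6), and the lowest Ccdc93, a coiled-coil subunit (5.60 ± 0.29, percentile 3.39). Commd3 at 97.3 thus ranked above all 16 of them. None of them had an unadjusted p under 0.05 by limma in any contrast between pool sizes, beside 2.30% to 3.03% of all genes. Their median difference between 400 and 100 dendrites was 0.09 log2 units, where that of all genes was 0.02.

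Of the 13 genes listed for the olfactomedin domain family and the Nogo receptor, 10 were measured, 0 were in the top 5% and 3 were above the 50th percentile. Their median percentile was 24.8. Myoc, myocilin, was the highest (9.15 ± 0.51 log2 units, SD, n = 9, percentile 87.1), and Olfm3, the closest relative of Olfm1 measured, was the lowest (5.65 ± 0.37, percentile 4.68). Olfm1 at 97.5 ranked above all 10. The median difference of these genes between 400 and 100 dendrites was -0.06 log2 units. Unadjusted calls numbered 0 in every contrast, beside 2.30% to 3.03% of all genes.

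Among 16 measured SR proteins and CLK kinases of 17 listed, which recruit the splicing machinery and phosphorylate it, 0 were in the top 5% and 5 were above the 50th percentile. The median percentile was 36.2, with Srsf5 at 88.3 (9.40 ± 0.44 log2 units, SD, n = 9) and the kinase Clk1 at 9.01 (5.94 ± 0.45). Clasrp at 57.2 lay inside this range. Between 400 and 100 dendrites the median difference was 0.15 log2 units. At an unadjusted p under 0.05, 0 of the 16 were called in any contrast, beside 2.30% to 3.03% of all genes.

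Of 14 listed H2A variants and proteins that exchange H2A.Z, 13 were measured, 8 were above the 50th percentile, and the median percentile was 54.9. The macroH2A gene Macroh2a2 (10.93 ± 0.51 log2 units, SD, n = 9, percentile 96.9) and the acetyltransferase Kat5 were in the top 5%, and H2ax, the variant of DNA repair, was the lowest (6.59 ± 0.32, percentile 22.4). H2afz at 91.7 ranked under these 2 and under Vps72, which binds H2A.Z (percentile 92.2), and above the other 10. Actr6, a subunit of the SRCAP complex that deposits H2A.Z, was 1.48 log2 units higher with 400 than with 100 dendrites (unadjusted limma p of 0.0156), the 1 such call among the 13 genes, beside 2.41% of all genes, and 0 were called after adjustment. The median difference between 400 and 100 dendrites was 0.29 log2 units.

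The complex NuRD, whose ATPase gene Chd4 is the known target of Zfp410, had 12 of 13 listed genes measured. Of these, 9 were above the 50th percentile and the median percentile was 68.7. The deacetylase Hdac2 (9.26 ± 2.04 log2 units, SD, n = 9, percentile 95.7) and the histone chaperone Rbbp7 (10.13 ± 0.86, percentile 95.3) were in the top 5%, and Hdac1 was the lowest (6.39 ± 0.55, percentile 15.9). Chd4 itself had 8.73 ± 0.37 log2 units and stood at 81.1. Gatad2b, a subunit that links the deacetylase and remodelling parts, was 1.19 log2 units higher with 400 than with 100 dendrites (unadjusted limma p of 0.0277), the 1 such call among the 12, beside 2.41% of all genes, with 0 after adjustment. The median difference between 400 and 100 dendrites was 0.33 log2 units. Kat5, Vps72, Rbbp7 and Chd4 fall outside the rule for named genes and were chosen after their values were seen.

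**Figure D4:**
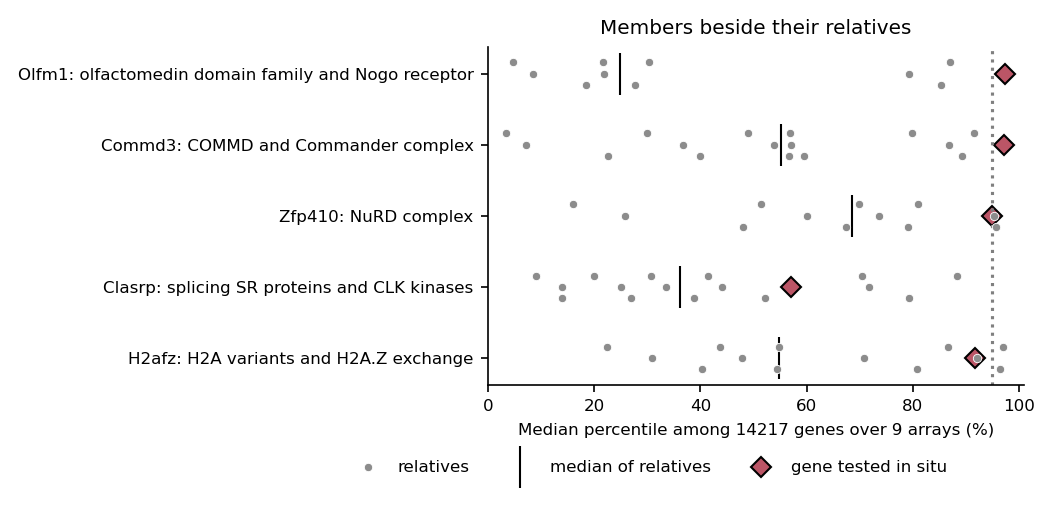
Median percentile over 9 arrays, among 14217 genes, of each gene tested in situ (red diamond) and of the genes listed as its relatives or partners (grey points, with a bar at their median), with a dotted line at the 95th percentile. Olfm1 and Commd3 lie to the right of every listed relative, Clasrp lies among them, and H2afz and Zfp410 have relatives in the top 5%.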

How the data were processed

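The authors deposited log2 probe set signals of 9 Affymetrix rat expression arrays, summarised by RMA version 2.0 from RNA that had been linearly amplified several times. RMA removes background, gives all arrays the same distribution of probe signal and then merges the probes belonging to each probe set. This hides any difference in total RNA between pool sizes. The study's later centring and percentile scaling was not part of the deposited values and served as an alternative. Arrays have no read depth, and their number limits the precision.

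Of 31099 probe sets, 57 controls were left out. The platform's table gave 1 gene for 20826 of the other 31042, several for 436 and none for 9780. Current RefSeq symbols, found by Entrez ID, replaced those of 20758 probe sets, and 68 stayed as they were. Probe sets assigned to the same gene alone were combined by their median into 14217 genes, 4525 with several probe sets. Columns were matched to samples by title, and 0 pairs of arrays held identical values.

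Pool sizes were compared by linear models with limma (version 3.58.1, R 4.3.3) fitted to all 9 arrays together, with moderated variances. P-values were two-sided and adjusted by Benjamini-Hochberg over all genes or all probe sets, with a threshold of 0.05, and the fit was tested on simulated data. Correlations were tested by exact permutation over all 362880 orders of the 9 arrays, two-sided. Python 3.11.15, numpy 2.4.6, pandas 2.3.3, scipy 1.17.1 and matplotlib 3.10.9 were used.

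The text names the 5 genes with all their probe sets, the 2 genes that correlated best with each, the highest and lowest gene of each list of relatives, and listed genes with an unadjusted p under 0.05. Genes and lists were chosen with earlier results of these data known. Alternatives comprised quantile normalization, the study's scaling, probe sets of above-median mean signal alone, the mean or the brightest probe set as gene value, trended and robust variances, the methods' t-test, a replicate block and omission of each array.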

Additional observations from a re-analysis of the deposited data

How the results depend on the processing

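In every alternative run, 0 of the 5 genes passed the adjusted threshold in any contrast between pool sizes. Of 120 differences recomputed without leaving out an array, 4 changed sign, each with the probe set of highest mean signal in place of the median. For Zfp410 they became 0.005 for 400 against 100 dendrites, -0.0075 for 200 against 100 and 0.0126 for 400 against 200, and for Olfm1 400 against 200 gave -0.14. Leaving out 1 array changed the sign of 15 of 135 differences. The ranges for 400 against 100 dendrites were then -0.35 to 0.86 for Commd3, -0.12 to 0.0706 for Zfp410, -0.17 to 0.14 for Clasrp and -0.85 to 0.50 for H2afz, and 0.72 to 1.37 for Olfm1, which kept its sign. For H2afz 200 against 100 dendrites ran from -0.39 to 1.02 and 400 against 200 from -1.40 to 0.39. The sign of Clasrp turned without replicate 1 of 100 dendrites or replicate 3 of 400. The count in the top 5% was 3 each time an array was left out, and 0 when the gene ranks were taken among the probe sets of above-median mean signal, since fewer and brighter features are then compared. Of 77 percentile values 8 moved by more than the spread over arrays. With those probe sets they were 94.2 for Olfm1, 93.7 for Commd3, 88.3 for Zfp410 and 24.0 for Clasrp. With the brightest probe set for each gene they were 94.6 for Commd3 and 99.6 for Zfp410. The rest were the 2 Zfp410 probe sets ranked alone, at 45.3 and 99.8. H2afz at 85.9, Clasrp at 49.4 and Olfm1 at 96.8 were also lower with the brightest probe set, by less than the spread over arrays. The Pearson correlation of the 2 Olfm1 probe sets was -0.22 without the 2 arrays farthest from the median.

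The replicate numbers did not pair the arrays, as deviations of same-numbered arrays from their pool means correlated at -0.189 to 0.0926 over 9 pairs, and 1 of 9 arrays correlated best with its own number. With the replicate number as a block, the count past the threshold was 0 in each contrast, and Olfm1 had an unadjusted limma p of 0.0362 for 400 against 100 dendrites. That p was 0.112 without replicate 3 of 100 dendrites and 0.140 when only the brightest probe set stood for each gene, and under 0.05 in the other alternatives run. With 3 arrays per pool size, even changes above 1 log2 unit could not always be told from none. The Olfm1 difference of 1.08 log2 units between 400 and 100 dendrites had an adjusted limma p of 0.9991. For H2afz the unadjusted interval of the same contrast ran from -2.20 to 1.45 log2 units.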
